A study of Mus musculus with 6 samples.

Results

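The unit studied here is the 5 Mb bin of mouse chromosomes 1 to 19, read as a gauge of DNA dose. A bin was kept when at least 50 of its cytosine positions had 10 or more reads in at least 5 of 6 libraries. The rule kept 495 of the 501 bins that held any such position, and these bins carried 327236 counted positions of 2032401 seen. The kept bins held 51 to 3199 counted positions with a median of 495, and the 6 bins left out held at most 35. For each library the methylated and unmethylated reads at the counted positions of a bin were added, divided by the sum over all kept bins, and set on a log2 scale against the median of the 6 libraries.

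The libraries are reduced representation bisulfite sequencing (RRBS) of genomic DNA of C57BL/6 mice, with 1 library each for 3 double-deletion (DKO) lines, 2 wild-type (WT) lines and round spermatids from testis. All lines are androgenetic haploid embryonic stem cells (AG-haESCs) kept on feeders with 2i-supplemented medium, and the round spermatids served as the study's control. The DKO lines carry the H19△DMR and IG△DMR deletions and were at passage 32 (DKO replicate 1, AGH-4), 31 (DKO replicate 2, OG3-2) and 29 (DKO replicate 3, AGH-2). The WT lines carry no named deletion and were at passage 31 (WT replicate 1, OG3) and 18 (WT replicate 2, AGH-2). The names OG3 and AGH-2 recur in a WT and a DKO title, and the sources used here do not say how the lines of one name are related. Each line stands for itself, so a value seen in 1 line has no replicate.

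Androgenetic haploid ES cells come from blastocysts whose only genome is a paternal one, and they can stand in for sperm when injected into an egg. The DMR of H19 and the IG-DMR of the Dlk1-Meg3 domain are the imprinting control elements that sperm DNA carries methylated. Haploid ES cells tend to double their genome in culture, and mouse ES cells are known for extra copies of chromosomes 8 and 11 and for local gains and losses. A share of reads measures the dose of a region relative to the rest of the genome, so a doubling of the whole genome leaves every share as it was.

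In a haploid culture, 1 extra copy of a region in 10% of the cells gives a log2 ratio of 0.14, in 20% of the cells 0.26 and in 50% of the cells 0.585, and a copy in every cell gives 1. In a diploid culture the same shares of cells give 0.07, 0.14 and 0.32, and a copy in every cell gives 0.585. How many cells of each line were haploid was not measured here. Where the region is lost from every cell, no read is left. The kept bins held 165021123, 162406359 and 156840036 reads in DKO replicates 1 to 3, 191564752 and 202604909 reads in WT lines and 239205549 reads in round spermatids. The spread of the bins (the scaled median absolute deviation of the log2 ratio) was 0.0877, 0.0759 and 0.108 in the DKO lines, 0.0755 and 0.103 in WT lines and 0.198 in round spermatids.

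RRBS reads start at sites of the enzyme MspI, which cuts CCGG, so depth is gathered at CpG-rich stretches such as promoters. The sequences below are the 250 bases before the annotated start of 6 genes (RefSeq, GRCm38.p6), shown because each lies in a segment described further on and holds counted positions. They run 5′ to 3′ on the gene's strand, and capitals mark CCGG. Over all 250-base windows upstream of the starts in the RefSeq promoter table, 47.1% hold CCGG on either strand, and 96.3% of those with a counted position do.
Onecut1: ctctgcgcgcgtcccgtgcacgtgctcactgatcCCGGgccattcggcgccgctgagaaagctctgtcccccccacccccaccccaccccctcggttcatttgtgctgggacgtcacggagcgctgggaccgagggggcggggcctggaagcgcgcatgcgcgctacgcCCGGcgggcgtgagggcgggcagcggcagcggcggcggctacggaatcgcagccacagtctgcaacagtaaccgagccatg
Wwc1: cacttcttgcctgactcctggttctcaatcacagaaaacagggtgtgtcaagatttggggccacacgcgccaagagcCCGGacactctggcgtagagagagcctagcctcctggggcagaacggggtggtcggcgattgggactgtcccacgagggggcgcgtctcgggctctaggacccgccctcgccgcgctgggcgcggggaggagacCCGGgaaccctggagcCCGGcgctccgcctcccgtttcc
Sdk2: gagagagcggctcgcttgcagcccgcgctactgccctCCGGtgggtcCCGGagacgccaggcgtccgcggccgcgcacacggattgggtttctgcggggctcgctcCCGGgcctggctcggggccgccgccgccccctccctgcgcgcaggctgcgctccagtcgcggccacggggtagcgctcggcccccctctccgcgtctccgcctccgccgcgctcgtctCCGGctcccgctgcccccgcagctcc
Ppp1r3d: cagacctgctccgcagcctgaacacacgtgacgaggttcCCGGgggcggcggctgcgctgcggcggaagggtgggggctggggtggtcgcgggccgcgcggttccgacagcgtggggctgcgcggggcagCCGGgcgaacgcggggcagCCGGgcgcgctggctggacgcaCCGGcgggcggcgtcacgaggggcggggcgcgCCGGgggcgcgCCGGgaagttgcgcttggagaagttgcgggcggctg
Cdc20: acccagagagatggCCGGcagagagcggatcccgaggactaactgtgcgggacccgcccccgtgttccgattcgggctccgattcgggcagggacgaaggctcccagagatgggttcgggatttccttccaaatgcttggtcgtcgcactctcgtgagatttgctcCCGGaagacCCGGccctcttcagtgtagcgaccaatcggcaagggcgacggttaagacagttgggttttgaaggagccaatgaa
Ankrd11: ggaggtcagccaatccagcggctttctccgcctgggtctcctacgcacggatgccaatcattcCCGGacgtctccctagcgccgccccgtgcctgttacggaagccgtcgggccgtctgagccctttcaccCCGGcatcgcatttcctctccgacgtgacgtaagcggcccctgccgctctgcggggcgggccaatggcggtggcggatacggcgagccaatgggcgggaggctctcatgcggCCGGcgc

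The window of Onecut1, a liver and pancreas transcription factor gene, lies at chr9:74861671-74861920 on the plus strand and held 18 counted positions. That of Wwc1, which encodes the Hippo pathway protein KIBRA, lies at chr11:35980528-35980777 on the minus strand with 11 positions, and that of Sdk2, a cell adhesion gene, at chr11:114067030-114067279 on the minus strand with 16. The window of Ppp1r3d, which encodes a glycogen-targeting subunit of protein phosphatase 1, lies at chr2:178414464-178414713 (minus strand), within the span of its neighbour Fam217b, and held 3 positions. Those of Cdc20, the gene of an activator of the anaphase-promoting complex, at chr4:118437344-118437593 (minus strand) and of Ankrd11, a chromatin regulator gene, at chr8:123042285-123042534 (minus strand) held 14 and 11 positions.

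A single window shows the dose measure before any averaging, here in RPM, the reads per 1000000 reads of a library in the kept bins. The Ppp1r3d window had 0 reads in DKO replicate 3, against 6.32 and 23.2 RPM in DKO replicates 1 and 2, 16.5 and 27.1 in WT lines and 56.0 in round spermatids. At Wwc1, DKO replicate 2 had 126 RPM, the other 4 lines 30.6 to 50.9 and round spermatids 56.4. At Onecut1, DKO replicate 2 had 96.0 RPM and DKO replicate 1 had 107.5, so 1 window alone did not set the line apart there although its segment did. At Ankrd11, DKO replicate 1 had 0 reads, against 23.0 and 35.9 RPM in DKO replicates 2 and 3. WT lines had 31.7 and 115 there and round spermatids 46.0. Over the whole segment around Ankrd11, DKO replicate 1 had 6140 RPM beside the 6021 of WT replicate 1. A window without reads therefore does not by itself mark a lost segment.

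No whole chromosome stood apart in any library. Of 114 pairs of a chromosome and a library, 0 (0%) lay at a log2 ratio of 0.25 or more from the median. In the lines the chromosomes ranged from -0.15 to 0.22, both on chromosome 14, and without the 1% deepest positions they ranged from -0.08 to 0.07. Taking instead the median over positions of the log2 depth ratio, which gives each position the same weight, the chromosomes of the lines ranged from -0.05 to 0.04. An extra copy in 10% of the cells gives 0.14 if they are haploid and 0.07 if they are diploid.

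Chromosomes 8 and 11 did not differ from this. By the median over positions, chromosome 8 stood at -0.01, 0.00 and -0.02 in DKO replicates 1 to 3, at -0.01 and 0.04 in WT lines and at -0.01 in round spermatids. Chromosome 11 stood at 0.00, 0.03 and -0.02 in the DKO lines, at 0.02 and 0.02 in WT lines and at -0.09 in round spermatids. The highest of these, 0.04 on chromosome 8 of WT replicate 2, includes the local gain described below.

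**Figure D1:**
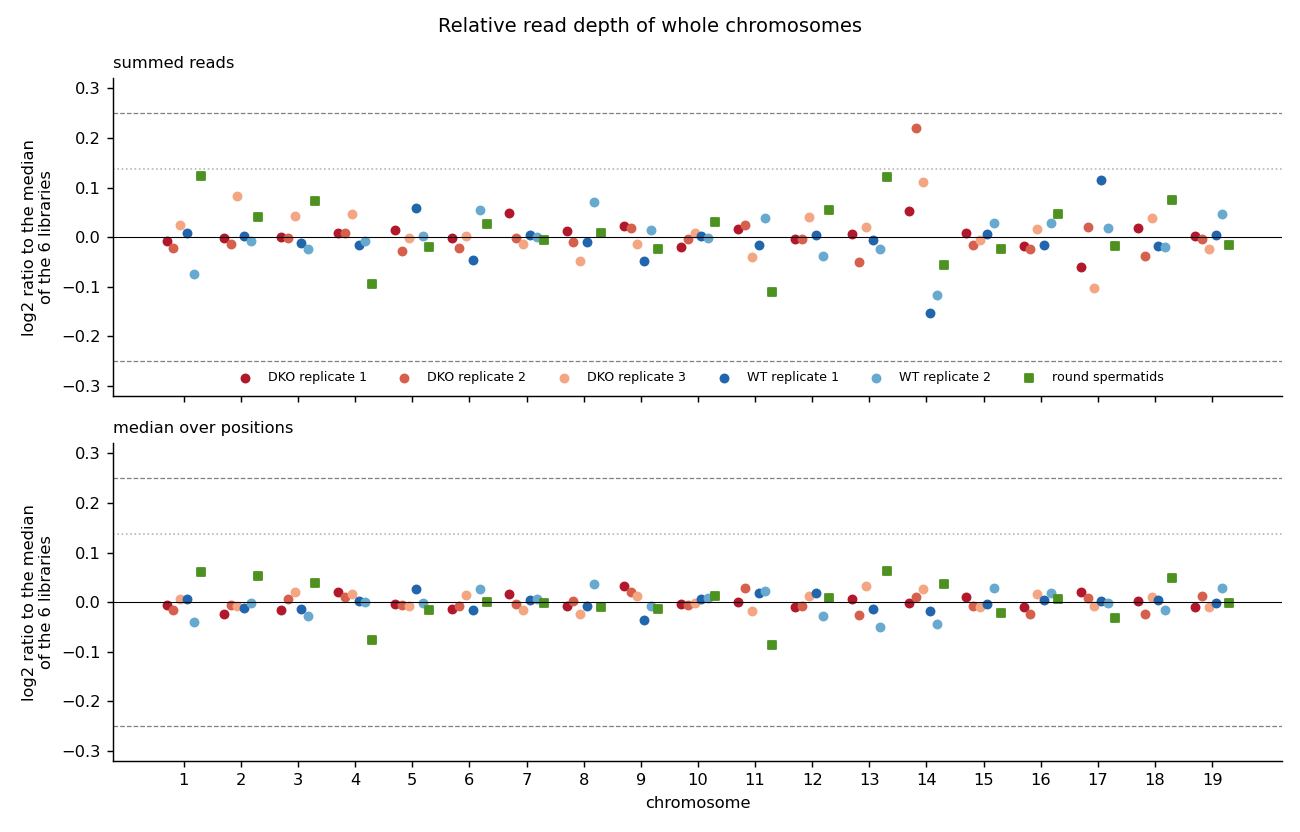
Log2 ratio of each chromosome's depth to the median of the 6 libraries (y) for chromosomes 1 to 19 (x), 1 point per library, by summed reads (top) and by the median over positions (bottom). Dashed lines mark 0.25 either way, which no point reaches, and the dotted line the 0.14 of 1 extra copy in 10% of haploid cells.

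The X chromosome served as a region of known dose. A haploid AG-haESC line holds an X, while a round spermatid holds an X or a Y. Round spermatids had 10.9 X reads per 1000 autosomal reads, against 20.5, 19.6 and 20.7 in the DKO lines and 20.2 and 19.1 in WT lines. The ratio of round spermatids to the mean of the lines was 0.546 (log2 -0.87), with the lines at 20.02 ± 0.667 (SD, n = 5). By the median over positions the log2 difference was -0.97. Round spermatids also had 238 reads per 1000000 autosomal reads on the Y chromosome outside its end, against 67.1, 83.1 and 55.1 in the DKO lines and 34.8 and 46.8 in WT lines, and the source of those in the lines was not tested.

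At the scale of single bins, changes were few and mostly private to 1 library. DKO replicate 1 had 2 bins (0.404%) at a log2 ratio of 0.5 or more and 3 (0.606%) at -0.5 or less, and DKO replicate 2 had 4 (0.808%) and 0 (0%). DKO replicate 3 had 10 (2.02%) higher and 1 (0.202%) lower. WT replicate 1 had 1 (0.202%) higher and 5 (1.01%) lower, and WT replicate 2 had 1 (0.202%) and 10 (2.02%). Round spermatids had 16 (3.23%) higher and 9 (1.82%) lower.

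These 62 calls fell on 45 bins, of which 28 were called in a line. By the median over positions, 10 of the 37 calls in the lines were also past 0.5 in the same direction. The called bins of each library and direction had a lower median number of counted positions than all bins, except for the 1 bin higher in WT replicate 2, with 2991. The bins called higher in DKO replicate 3 held a median of 85.5 positions and those called lower in WT replicate 2 held 99.5, against 495 over all bins. Between 88.7% and 96.0% of bins lay within 0.25 of the median in the lines, and 75.35% did in round spermatids.

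**Figure D2:**
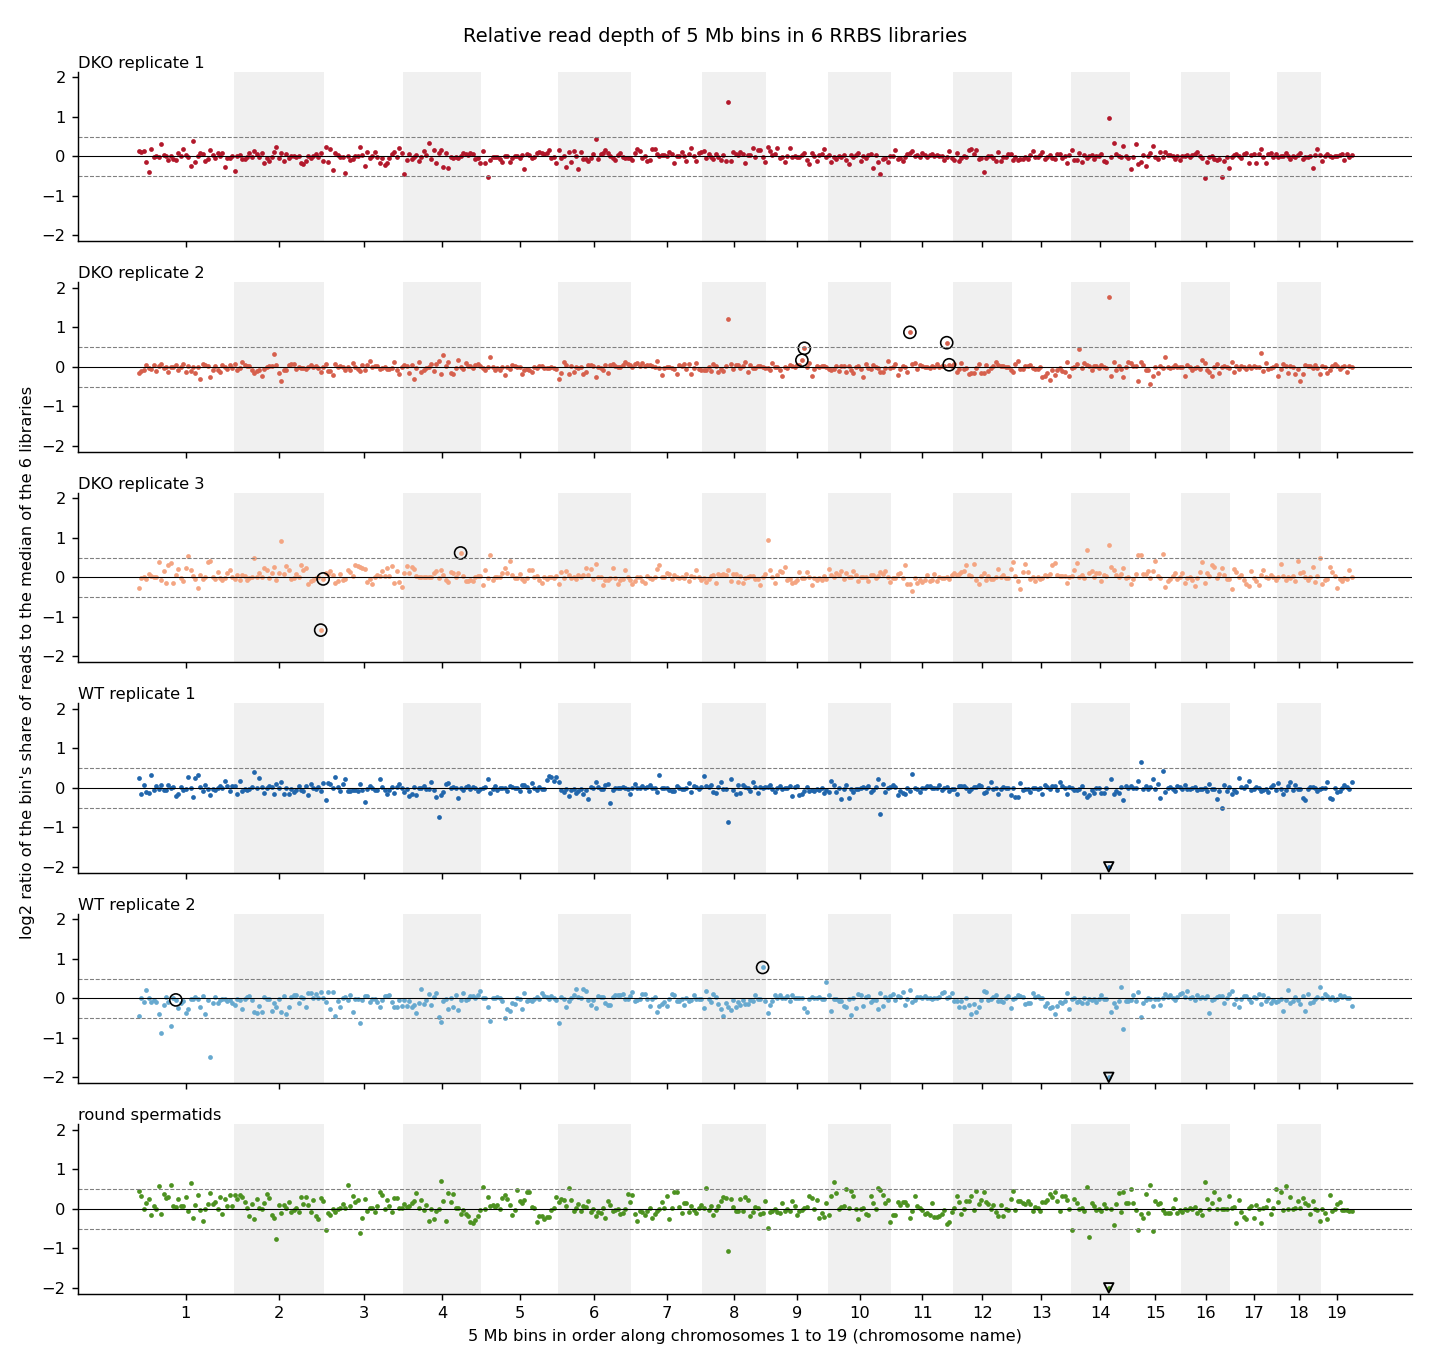
Log2 ratio of each 5 Mb bin's share of reads to the median of the 6 libraries (y), with the 495 bins in order along chromosomes 1 to 19 (x) and 1 panel per library. Circles mark bins that overlap a segment described in the text, triangles bins drawn at -2 that lie lower, and dashed lines 0.5 either way.

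Bins of 5 Mb average over smaller changes, so neighbouring clusters of positions (a new cluster after a gap of more than 300 bp) were also joined into segments of one level. The level was sought in the log2 depth of each cluster relative to the median of the other lines. This search and its settings were chosen after the bins had been seen, and it picks segments by the same depth that is then reported, so the values below describe them and carry no test. It found 9 segments in 66186 autosomal clusters, 6 above and 3 below, in DKO replicate 2, DKO replicate 3 and WT replicate 2. None was found in DKO replicate 1, WT replicate 1 or round spermatids. The search scales each library by its own spread of clusters, an interquartile range of 2.25 in round spermatids and 1.07 to 1.38 in the lines. A change had to be larger or longer to be found in round spermatids.

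DKO replicate 2 had about double the dose of 3 segments. The first, chr9:73039452-76189272, covers 3.15 Mb and 334 counted positions across 2 bins, which therefore showed only 0.17 and 0.47. DKO replicate 2 had 2030 RPM there, against 1182 and 1014 in DKO replicates 1 and 3, 953 and 847 in WT lines and 1144 in round spermatids. The ratio to the mean of the other lines was 2.03, and the other lines averaged 999 ± 140 (SD, n = 4). Counted positions within 1 Mb on each side stood at log2 -0.13 and 0.09 relative to the mean of the other lines.

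This segment holds 23 named protein-coding genes. Among the 21 with counted positions, DKO replicate 2 was higher than every other line at 17, while over all 13477 such genes it was so at 15.4%. Gnb5, a G protein beta subunit gene, had 359 RPM in DKO replicate 2, against 208 and 162 in the other DKO lines and 183 and 64.9 in WT lines. Tmod3, whose product caps the slow end of actin filaments, had 272.5 in DKO replicate 2, against 97.4 and 121 in the other DKO lines and 175 and 152 in WT lines. At Myo5a, the gene of a myosin that carries organelles, DKO replicate 2 had 173 and DKO replicate 1 had 162, so neighbouring genes did not all move alike.

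The second segment of DKO replicate 2, chr11:35686644-38231631, spans 2.545 Mb and 186 counted positions. DKO replicate 2 had 927 RPM, against 475 and 384 in DKO replicates 1 and 3, 419 and 555 in WT lines and 379 in round spermatids, a ratio of 2.02 to the other lines. Its 5 Mb bin stood at 0.88 in DKO replicate 2, against -0.16 to 0.21 in the other lines. Wwc1 and the teneurin adhesion gene Tenm2 lie in it, as do Rars, which encodes arginyl-tRNA synthetase, and Pank3, a pantothenate kinase gene of coenzyme A synthesis. DKO replicate 2 was higher than every other line at 5 of its 6 genes. The exception, the axon guidance gene Slit3, has only its end inside the segment.

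The third, chr11:113611768-115099734, spans 1.49 Mb and 483 positions. DKO replicate 2 had 2378 RPM, against 1229 and 1154 in DKO replicates 1 and 3, 1198 and 1151 in WT lines and 915 in round spermatids. The other lines averaged 1183 ± 37.5 (SD, n = 4), and the ratio was 2.01. Its bin stood at 0.61 in DKO replicate 2 and between -0.03 and 0.02 in the other lines. Sdk2 had 309 RPM in DKO replicate 2, against 160 and 151 in the other DKO lines and 146 and 184 in WT lines. DKO replicate 2 was higher than every other line at 16 of the 18 genes with counted positions.

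DKO replicate 3 had about double the dose of chr4:117251878-119972763, a stretch of 2.72 Mb with 898 positions. It had 5179 RPM there, against 2697 and 2624 in DKO replicates 1 and 2, 2696 and 2545 in WT lines and 2245 in round spermatids. The ratio was 1.96, with the other lines at 2641 ± 72.3 (SD, n = 4). Flanks stood at log2 0.03 on each side. The segment carries 44 named genes, among them Slc2a1, which encodes the glucose transporter GLUT1, Kdm4a, a histone demethylase gene, and Ptprf, a receptor tyrosine phosphatase gene.

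Slc2a1 had 203 RPM in DKO replicate 3, against 117 and 158 in the other DKO lines and 102 and 76.2 in WT lines. Kdm4a had 160 in DKO replicate 3, against 82.7 and 90.0 in the other DKO lines and 59.4 and 72.8 in WT lines. DKO replicate 3 was higher than every other line at 28 of the 35 genes with counted positions, and over all genes at 21.8%.

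WT replicate 2 had the longest of these segments, chr8:120044725-123533421, 3.49 Mb with 2363 counted positions near the end of the chromosome. WT replicate 2 had 11911 RPM, against 6021 in WT replicate 1, 6140, 6005 and 5959 in the DKO lines and 5393 in round spermatids. The other 4 lines averaged 6031 ± 76.8 (SD, n = 4), and the ratio was 1.975. The 5 Mb bin stood at 0.78 in WT replicate 2 and between -0.01 and 0.01 in the other lines.

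Among its 60 named genes, Gse1 had 2129 RPM over 431 positions in WT replicate 2, against 985 in WT replicate 1 and 1006, 1029 and 1042 in the DKO lines. Zfpm1, which encodes the GATA cofactor FOG1, had 396.5 in WT replicate 2, against 217 in WT replicate 1 and 196 to 202 in the DKO lines. Cbfa2t3, a corepressor gene of blood cell formation, had 377 in WT replicate 2, against 206 in WT replicate 1 and 165 to 223 in the DKO lines. Piezo1, the gene of a channel opened by membrane tension, had 183 in WT replicate 2, against 97.6 to 135 in the other lines. Altogether WT replicate 2 was higher than every other line at 50 of 56 genes with counted positions, against 19.8% of all genes.

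**Figure D3:**
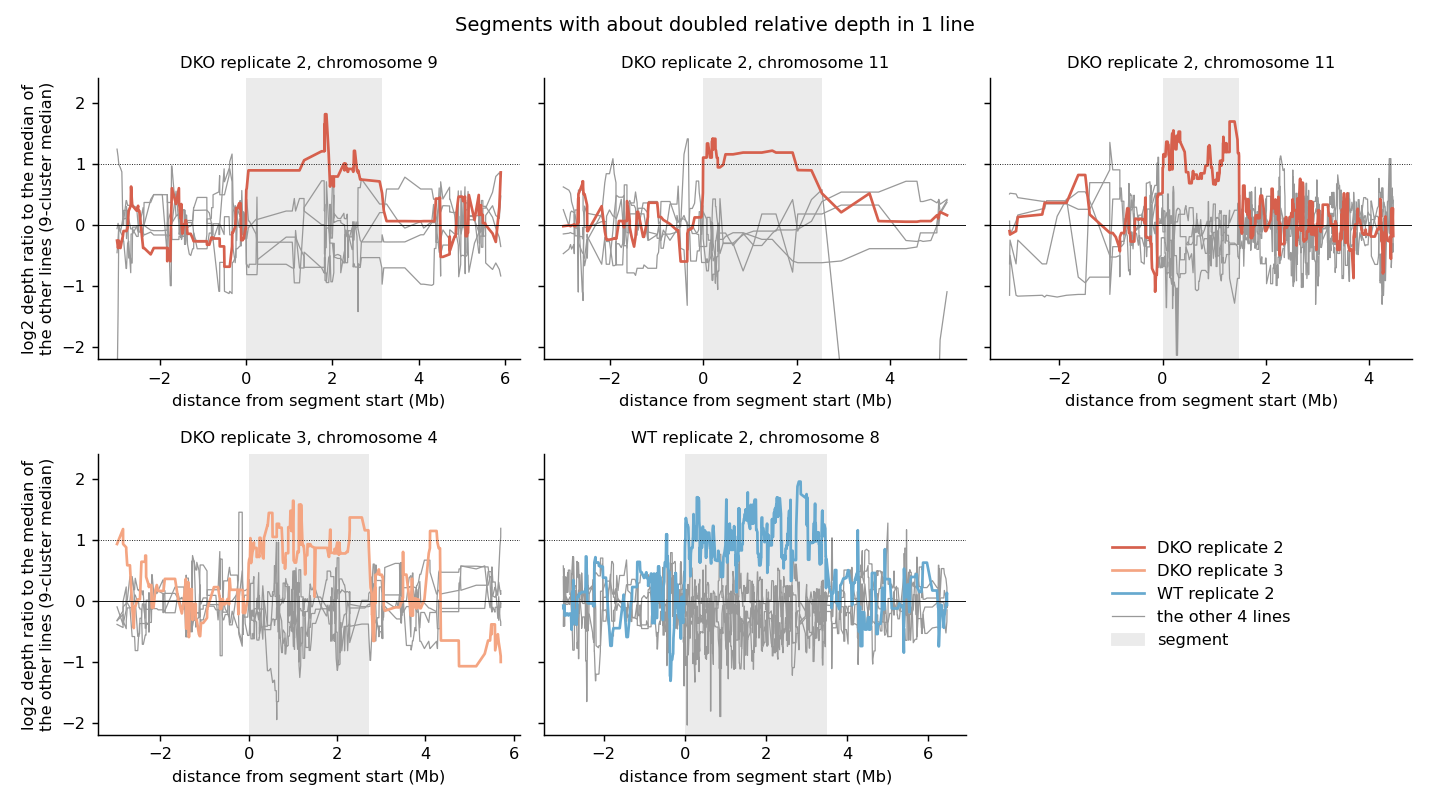
Median log2 depth ratio of 9 neighbouring clusters to the median of the other lines (y) against distance from the segment start in Mb (x), for the 5 segments with about double dose. The coloured line is the library named above each panel, grey lines are the other 4 lines, and the shaded span is the segment, inside which the coloured line lies near 1.

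The losses left next to no reads. DKO replicate 3 had 4 reads over the 97 positions of chr2:178023527-179169109, where the other 4 lines had 36163 to 52338 and round spermatids 83612. At 96 of those positions it had none. The mean of the other lines predicted 38953 reads, so 0.0103% of the depth was left, with an upper 95% limit of 0.0263% (exact Poisson, counting error only). In the same line chr2:179750152-180025975 had 7 reads over 80 positions where 43001 were predicted, 0.0163% with an upper limit of 0.0335%. The limits cover any cell of the culture that keeps the segment, feeder cells included.

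All 6 genes of the first loss with counted positions were at 0 reads in DKO replicate 3. They include Ppp1r3d, Phactr3, a phosphatase and actin regulator gene, and Sycp2, a gene of the synaptonemal complex that pairs chromosomes in meiosis. Phactr3 had 92.3 and 59.2 RPM in DKO replicates 1 and 2, 109 and 75.8 in WT lines and 113 in round spermatids. In the second loss Taf4, which encodes a subunit of the general transcription factor TFIID, was at 0 in DKO replicate 3, against 71.5 and 111 in the other DKO lines, 61.5 and 95.3 in WT lines and 66.8 in round spermatids. Lsm14b, an mRNA-binding protein gene, was also at 0 there.

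Between the losses an interval kept its reads. The span chr2:179355006-179735471, which holds part of the cadherin gene Cdh4, had 282.5 RPM in DKO replicate 3, against 276.5 and 210 in DKO replicates 1 and 2, 281 and 410 in WT lines and 389 in round spermatids. Its clusters stood at a median log2 of 0.40, which placed it among the 6 higher segments, yet by summed reads it was 0.959 times the mean of the other lines, so it is given here as a span without a loss and not as a gain. The bin holding most of the 2 losses, chr2:175000001-180000000, was at -1.34 in DKO replicate 3 and between -0.13 and 0.17 in the other lines.

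WT replicate 2 had 0 reads over the 37 positions of chr1:77258878-78149797. The other lines had 8367 to 15072 reads and round spermatids 20295, and 14729 were predicted, so a count of 0 allows up to 0.0204% of that depth. Epha4, the gene of an ephrin receptor, lies wholly inside and had 0 reads in WT replicate 2, against 13.2 to 32.4 RPM in the other lines and 17.5 in round spermatids. Pax3, a transcription factor gene of neural crest and muscle, lies across the far edge and kept 23.4 RPM in WT replicate 2, against 21.5 to 30.4 in the other lines. The 5 Mb bin was at -0.04, since 37 of its 685 positions lie in the loss.

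**Figure D4:**
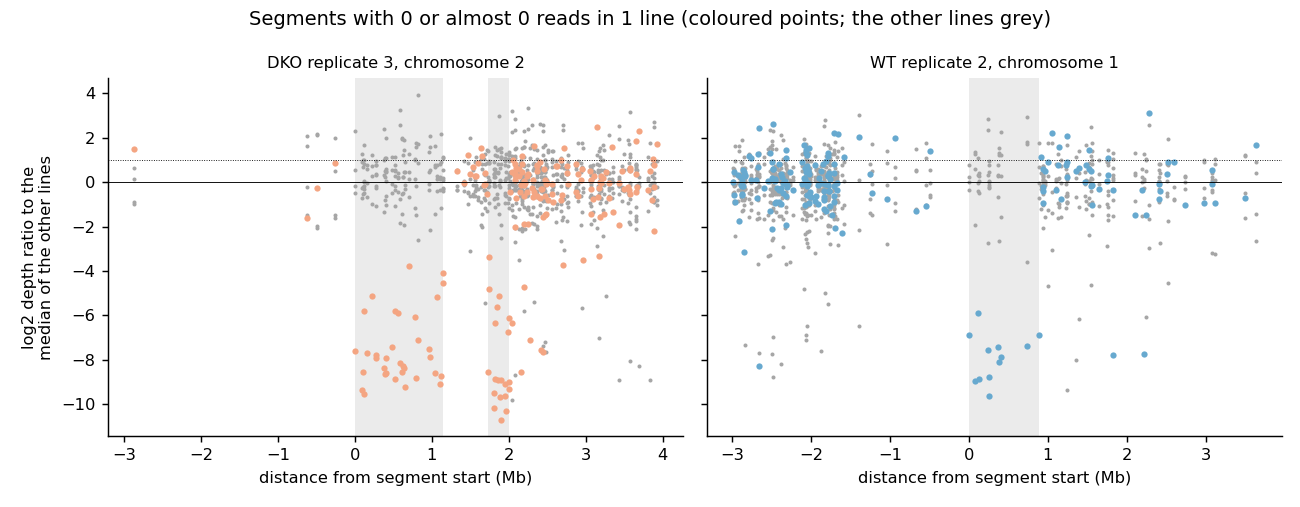
Log2 depth ratio of single clusters to the median of the other lines (y) against distance from the segment start in Mb (x). Coloured points are DKO replicate 3 (left) and WT replicate 2 (right), grey points the other lines, and shaded spans the lost segments, in which the coloured points lie below -3.

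Shorter losses were sought as runs of at least 20 counted positions and 20 kb without a read in 1 library. There were 5 in the DKO lines (1, 1 and 3 in replicates 1 to 3), 4 in WT replicate 2, and 0 in WT replicate 1 or in round spermatids. These counts include runs within the losses above. They are chr2:178023527-178678225 and chr2:179833764-180025975 in DKO replicate 3 and chr1:77258878-78149797 in WT replicate 2. The clearest of the new ones was chr5:115095085-115175504, 80.4 kb, where DKO replicate 2 had 0 reads over 46 positions in 13 clusters and the other lines had 28730 to 43144. It holds the whole of Unc119b, Rpl37rt and Acads, the last the gene of short-chain acyl-CoA dehydrogenase of fatty acid breakdown, all at 0 in DKO replicate 2.

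DKO replicate 3 also lacked reads over chr14:17534204-17792553, 258 kb with 29 positions in 5 clusters. It reaches into Thrb, the gene of thyroid hormone receptor beta. There the other lines had 5518 to 10442 reads. WT replicate 2 lacked them over chr1:146391078-146766019, 375 kb with 22 positions in 3 clusters around Brinp3, where the other lines had 4339 to 7077 reads. It lies in the lowest bin of WT replicate 2 outside the deep-cluster bins, chr1:145000001-150000000, at -1.49 with 51 positions. The other new runs of WT replicate 2, chr12:4038862-4082594 and chr13:65867233-66027589, had 21 positions each, in 2 and 6 clusters. That of DKO replicate 1, chr14:65262364-65326470 beside the Wnt receptor gene Fzd3, rests on 21 positions in 2 clusters.

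Lines of one name did not carry the same gains. WT replicate 2 and DKO replicate 3 are both titled AGH-2, yet over the chromosome 8 gain DKO replicate 3 had 5959 RPM against the 11911 of WT replicate 2, and over the chromosome 1 loss it had 14109 reads against 0. In turn WT replicate 2 had 46455 reads over the larger chromosome 2 loss and 2545 RPM over the chromosome 4 gain of DKO replicate 3. Both OG3 lines are alike in this. Over the gains of DKO replicate 2, WT replicate 1 had 953, 419 and 1198 RPM, within the range of the other lines.

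An extra copy or a loss in only some cells of a culture would give a ratio between whole copies. Several stretches of adjacent bins in the lines stood at such values, most of them lower than the median. What gave these values was not tested. Over the 5 bins of chr5:130000001-155000000, with 5932 positions, WT replicate 1 had 21297 RPM, against 18100 in WT replicate 2, 18259, 17552 and 17774 in the DKO lines and 16988 in round spermatids. The ratio to the other lines was 1.19 (log2 0.25), and the other lines averaged 17921 ± 318 (SD, n = 4). The value lies just under the 0.26 of an extra copy in 20% of haploid cells, and between the 0.14 and 0.32 of one in 20% and 50% of diploid cells. Its bins stood at 0.17 to 0.29 by summed reads and at 0.03 to 0.22 by the median over positions, so the called run of 4 bins at 0.25 was not reached.

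Among 419 windows of 5 adjacent bins, this one had the highest median of position medians in WT replicate 1, 0.16, with the other libraries between -0.04 and -0.01. The highest windows of the other lines reached 0.11, 0.08 and 0.18 in DKO replicates 1 to 3 and 0.09 in WT replicate 2, on chromosomes 15, 6, 3 and 2. The window was picked for its value, so this describes its place and is no test. DKO replicate 3 reached 0.18 on chr3:60000001-85000000, where round spermatids stood at 0.145 and the other lines between -0.10 and 0.05.

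With the size for runs set at 0.125, 7 runs were called in the lines, and 10 in round spermatids. DKO replicate 3 had 1 over that stretch of chromosome 3, at a median of 0.27 by summed reads, beside the 0.26 of WT replicate 1 on chromosome 5. DKO replicate 2 had 1 on chromosome 13 at -0.25. WT replicate 2 had 4, all lower, the lowest over chr2:40000001-60000000 at -0.35, and the others on chromosomes 12, 13 and 14 at -0.21, -0.22 and -0.28. The runs on chromosomes 2 and 3 were also called at 0.25 without the 1% deepest positions, at -0.35 and 0.27. The 4 bins of the chromosome 2 run held 65, 224, 329 and 365 counted positions, against a median of 495 over all bins. In sparse bins WT replicate 2 lay lower and DKO replicate 3 higher, as given below, which is the direction of their runs. The part of density in these runs was not tested.

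A looser setting of the segment search gave 17 segments and left the 9 in place. It added the 80 kb loss of DKO replicate 2 and 3 gains at the level of single lines. WT replicate 2 had 1611 RPM over chr6:51728557-52312765, against 689 in WT replicate 1 and 697, 821 and 974.5 in the DKO lines, a ratio of 2.03. DKO replicate 2 had 1576 over chr14:20829656-23855156, against 977 and 982 in the other DKO lines and 854 and 876 in WT lines, a ratio of 1.71. DKO replicate 3 had 1979 over chr9:3000382-14751322, against 1692 and 1621 in the other DKO lines and 1633 and 1400 in WT lines, a ratio of 1.25. The first bin of chromosome 9, which holds the glutamate receptor gene Gria4, was also the highest of DKO replicate 3 at 0.94. The other 4 added segments were broad ones of round spermatids.

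The highest and lowest log2 ratios over the 495 bins and 6 libraries lay in a bin where 1 cluster of positions differed widely in depth between libraries. In chr14:80000001-85000000, which holds the protocadherin gene Pcdh17, the bin stood at 0.98, 1.77 and 0.83 in the DKO lines, at -4.32 and -2.19 in WT lines and at -4.11 in round spermatids. The cluster, chr14:82083944-82083991, has 4 of the bin's 70 positions. It held 678515, 1163552 and 578820 reads in the DKO lines, 9526 and 82877 in WT lines and 12683 in round spermatids, which is 97.8% to 99.0% of the bin's reads in the DKO lines, 46.9% and 87.8% in WT lines and 43.2% in round spermatids. Without it the bin stood at -0.12, 0.18 and 0.39 in the DKO lines, at -0.20 and -0.18 in WT lines and at 0.11 in round spermatids.

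A like pattern lay in chr8:50000001-55000000, where Spcs3, a signal peptidase subunit gene, and the lysosomal enzyme gene Aga lie. It stood at 1.37, 1.225 and 0.19 in the DKO lines, at -0.87 and -0.22 in WT lines and at -1.07 in round spermatids. Its deepest cluster, 5 of 84 positions, held 86.3%, 79.2% and 58.2% of the bin's reads in the DKO lines, 13.1% and 50.4% in WT lines and 4.03% in round spermatids. Without that cluster DKO replicate 1 was at -0.40 and the other libraries between -0.13 and 0.06. In chr2:95000001-100000000 a cluster of 35 positions held 85.3% to 90.3% of the reads in every library. There DKO replicate 3 stood at 0.92 and the other libraries between -0.35 and 0.14, and without the cluster DKO replicate 3 was still at 1.215.

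**Figure D5:**
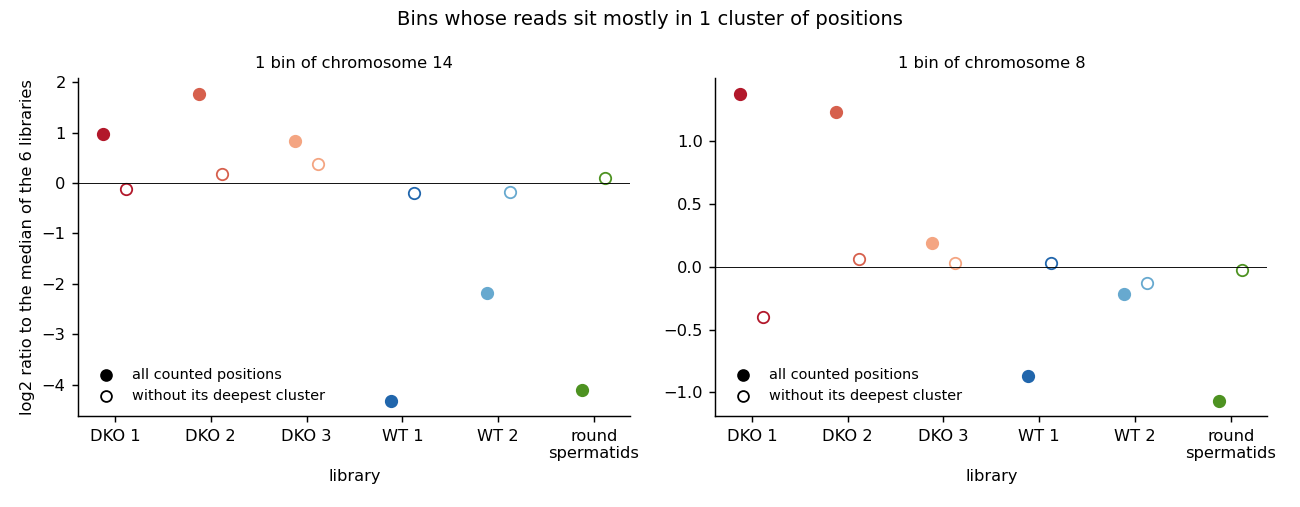
Log2 ratio of 2 bins to the median of the 6 libraries (y) for each library (x), with all counted positions (filled) and without the deepest cluster of positions (open). On chromosome 14 the span from -4.32 to 1.77 narrows to -0.20 to 0.39 without 4 positions.

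The remaining extreme bins of the lines were smaller in size. DKO replicate 1 was lowest in chr16:45000001-50000000 at -0.54 (-0.21 by the median over positions) and in chr16:80000001-85000000, which holds the amyloid precursor gene App, at -0.53. In the App bin WT replicate 1 stood at -0.51 as well, while the other libraries lay between -0.01 and 0.24. DKO replicate 2 was lowest in chr15:40000001-45000000, with the GATA cofactor gene Zfpm2, at -0.43, and in chr15:15000001-20000000, with the cadherin genes Cdh10 and Cdh9, at -0.37, neither past 0.5.

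DKO replicate 3 was second lowest in chr11:40000001-45000000 at -0.34, where the adrenergic receptor gene Adra1b and the B cell factor gene Ebf1 lie. WT replicate 1 was highest in chr15:20000001-25000000 at 0.65 and in chr15:65000001-70000000 at 0.42 (0.01 by the median over positions), and DKO replicate 3 stood at 0.57 and 0.585 in the same bins. The first, with the cadherin genes Cdh12 and Cdh18, has 53 counted positions, just inside the 50 of the rule. WT replicate 2 was second highest in chr9:120000001-125000000, with the trafficking gene Trak1, at 0.42 by summed reads and at -0.08 by the median over positions.

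DKO and WT lines were then compared over all bins, which asks whether the 2 deletions go with a shared change of dose. With edgeR's quasi-likelihood test 1 of 495 bins (0.202%) was higher in DKO at an adjusted p below 0.05 and 0 (0%) lower, and 16 bins had an unadjusted p below 0.05. The 1 bin was chr14:80000001-85000000, at 4171, 7238 and 3775 RPM in DKO lines, against 106 and 466 in WT lines (log2 difference 4.15, SE 0.577, adjusted p = 0.0163 by edgeR). With the 1% deepest positions left out, 0 bins were called, the smallest adjusted p by edgeR being 0.999. Without DKO replicate 3, 0 bins were called.

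In 67 bins (13.5%) every DKO line lay above every WT line, and in 29 (5.86%) every DKO line lay below, at a median absolute log2 difference of 0.07 over all bins. Of the 10 possible splits of the lines, 1 gives the first order and 1 the second. These counts, 19.4% of bins together, therefore show no group difference by themselves. The next bins by p were chr8:50000001-55000000 at a log2 difference of 1.52 and chr4:70000001-75000000 at 0.67 (adjusted p = 0.229 for both by edgeR). The bin of chromosome 4 had 667, 701 and 626 RPM in the DKO lines, against 380 and 458 in WT lines. A bin of chromosome 18 and chr2:80000001-85000000 followed at 0.33 and 0.38.

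On 4 of 19 chromosomes the shares of DKO and WT lines did not overlap, a count to be read against the same 10 splits. Over whole chromosomes the difference of DKO from WT in mean log2 share ran from -0.11 to 0.26, the highest on chromosome 14. By the exact permutation test (two-sided, 10 splits), the smallest p was 0.2, on chromosomes 3, 4, 14 and 19, the 4 without overlap. The smallest adjusted p by this test was 0.76 over 19 chromosomes. Lines that separate fully give 0.2 here, so the test as run cannot go lower and does not decide whether a chromosome differs. Upstream of H19 and Meg3, where the deleted elements lie, no position passed the read rule. The 10 positions seen within 10 kb before H19 had 192, 0 and 39 reads in DKO replicates 1 to 3, 27 and 40 in WT lines and 347 in round spermatids. The 24 positions seen within 20 kb before Meg3 had 149, 12 and 151 reads in DKO replicates 1 to 3, 307 and 0 in WT lines and 22 in round spermatids. DKO lines thus did not have fewer reads throughout these windows. The windows were set by distance from the gene, since the labels do not give the ends of the deletions, and this depth gives no check of them.

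Round spermatids, the control, differed from the lines in a finer grain. A bin was called where round spermatids lay outside the range of the 5 lines and 0.5 or more from their mean. There were 20 such bins higher (4.04%) and 9 lower (1.82%). Setting each line against the other 4 in the same way gave 1 to 11 higher and 1 to 14 lower. With 1 library of round spermatids no test was possible.

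Sparse and dense bins differed in this comparison. Round spermatids lay above the mean of the lines in 67.7% of the 124 bins with fewest positions and in 35.7% of the 126 with most, at median log2 differences of 0.16 and -0.05. The sparse bins held 17 of the 20 higher and 8 of the 9 lower calls, and over all bins the difference went with the number of positions at r = -0.09 and rho = -0.34. In the 9 lower bins the median methylation level was 44.4% in round spermatids and 19.1% in the lines, and in the 20 higher bins 6.10% and 5.51%. With methylation in round spermatids the difference went at r = -0.54 and rho = -0.47, a description over bins that share libraries and base composition. The part of methylation, of density and of amplification in these differences was not tested.

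The highest bin, chr4:75000001-80000000 with the receptor phosphatase gene Ptprd, had 416 RPM in round spermatids, against 239.5 ± 49.8 (SD, n = 5) in the lines, a log2 difference of 0.80. Next came chr16:45000001-50000000, with Nectin3 and Cd47, which encode adhesion and self-recognition proteins of the cell surface, at 949 in round spermatids, against 554 ± 87.1 in the lines. The third was chr10:10000001-15000000, with Utrn, the gene of the dystrophin relative utrophin, at 1410 in round spermatids, against 872.5 ± 29.4 in the lines. After the deep-cluster bins of chromosomes 14 and 8, the lowest was chr2:85000001-90000000 with Tnks1bp1 at -0.80 and 50.3% methylation in round spermatids. The 1 called run of 4 adjacent bins was chr1:50000001-70000000 in round spermatids, at a median of 0.34.

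Density also set lines apart from each other. The correlation of a line's log2 ratio with the log2 number of positions per bin was -0.39 in DKO replicate 3 and 0.45 in WT replicate 2, against -0.03 to 0.11 in the other 3 lines. In the lowest quartile of bins by number of positions the median ratio was 0.09 in DKO replicate 3 and -0.11 in WT replicate 2. The gains and losses of those lines above lie in segments with 37 to 2363 positions. Their part in this trend was not tested.

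Genes that steer pluripotency and growth were looked up by their bins. All 15 genes of a pluripotency list, with Pou5f1, Nanog and Sox2 among them, and all 20 of a list on growth and genome stability, with Trp53 and Myc, lie in kept bins, and 0 of either reached 0.5 in any library, where 45 of all 495 bins did in some library and 28 in a line, so the counts say nothing particular about these genes. Their bins ranged from -0.45 to 0.47 and from -0.27 to 0.27 in the lines. The median absolute log2 ratio was 0.07 for the pluripotency list and 0.05 for the growth list, beside 0.06 over all bins. The highest was the bin of Dppa5a, a marker of naive ES cells, at 0.47 in DKO replicate 2, where the gene itself lies outside the gained segment. The lowest was the bin of Zfp42, which encodes REX1, at -0.45 in WT replicate 2.

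Methylation gives a partial check on cells with a maternal genome in the cultures, such as feeders. Levels were taken from 1 kb outside to 3 kb inside either gene end, so the positions need not lie in the DMR itself. Genes with maternally methylated germline DMRs, unmethylated in a paternal genome, had counted positions at 13 of 15, of which 12 had at least 3 and were summarised. Their median level was 0.0289%, 0.116% and 0.0284% in DKO replicates 1 to 3, 0.0340% and 0.0325% in WT lines and 0.0401% in round spermatids. Among the 12 the highest in 5 libraries was Peg13, at 13.1%, 14.5% and 18.7% in the DKO lines, 0% in WT replicate 1, 6.73% in its fellow WT line and 4.97% in round spermatids, and 0 of the 12 passed 30% in any library. In WT replicate 1 the highest was Gnas at 4.72%. Mest, with 1 counted position, had 19.5% of 210 reads methylated in DKO replicate 1, 0% in DKO replicates 2 and 3, 100% of 3 reads in WT replicate 1, and 0% in WT replicate 2 and round spermatids. Over the bins the median methylation level was 4.95%, 6.23% and 4.63% in the DKO lines, 6.996% and 3.50% in WT lines and 8.57% in round spermatids.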

How the data were processed

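Per the labels' protocols, DNA was cut with MspI, ligated to methylated adapters, size-selected on a gel, bisulfite-treated and amplified by PCR. Per the submitters' processing notes, Bismark 0.12.2 and mm10 were used; the labels do not say whether PCR duplicates were removed. The deposited tables hold the authors' counts of methylated and unmethylated reads per cytosine, and a methylation level that the authors gave as a fraction. The counts were used unchanged, and levels printed here were recomputed from them. Libraries were grouped by the labels, with replicates numbered in accession order. Total reads over all positions were 197728785 to 293920118.

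Positions with 10 or more reads in at least 5 libraries were summed in 5 Mb bins (Python 3.11.15, pandas 2.3.3). Calls used log2 sizes of 0.5 (bins) and 0.25 (chromosomes, and runs of 4 bins). Segments came from a Viterbi path over log2 levels -7, -1, 0, 0.58 and 1 with a switching penalty of 14, or 11 in the looser setting. DKO and WT were compared with edgeR 4.0.16 (quasi-likelihood, totals over bins as library sizes, Benjamini-Hochberg adjustment over 495 bins), with DESeq2 1.42.0 and limma 3.58.1 as alternatives. Named bins were the 2 highest and 2 lowest per library, the 5 of lowest p, and the 3 highest and 3 lowest of round spermatids against the lines, each with the 2 genes of most counted positions or some of them. Genes within segments, and the bins of chromosome 5, were chosen after their values were seen. Gene positions came from RefSeq (GRCm38.p6). The tests were tried on simulated data. Members and lists were chosen with earlier results of these data known. Reads are not independent molecules, so limits cover counting error only. Nothing says that the lines are separate cultures beyond their names, so p-values measure the spread between these libraries.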

Additional observations from a re-analysis of the deposited data

How the results depend on the processing

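Bin calls depended on how depth was summed. The 62 calls became 23 by the median over positions, 208 in 2 Mb bins, 17 in 10 Mb bins, 33 with at least 100 positions a bin, 318 at a smaller size (0.25) and 9 at a larger one (1). Chromosome calls stayed at 0 except for 2 at a size of 0.125. Runs, 1 as reported, became 4 without the 1% deepest positions (2 in lines), 3 against the median of the 5 lines, 17 at the smaller size and 0 by position medians, at positions under 10% methylated, scaled by the median bin, in 2 Mb bins and at the larger size. The 29 bins of round spermatids became 13 by position medians, 110 in 2 Mb bins, 5 in 10 Mb bins, and 146 and 1 at the smaller and larger sizes, and leaving out each line gave 28 to 35. The X difference, -0.87, became -0.97 by position medians and -0.75 with 10 reads in all 6 libraries.

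DKO against WT, 1 bin as reported, gave 0 with at least 100 positions a bin, without the 1% deepest positions, at positions under 10% methylated and with limma, 2 in 10 Mb bins and with DESeq2, and 4 with 10 reads in all 6 libraries. Leaving out a line gave 0 (without DKO replicate 3) to 5 (without DKO replicate 2), with 3 without WT replicate 1. Chromosomes without overlap, 4 as reported, were 5 by position medians, 3 without the 1% deepest positions and 7 to 11 leaving out a line. With a line left out fewer splits are possible and non-overlap is more frequent by itself, so 7 to 11 do not measure the part of any line. With a replicate block by line name edgeR called 7 bins between DKO and WT. Deviations of same-named lines correlated at -0.37 (OG3) and -0.24 (AGH-2). With 2 WT lines their deviations mirror each other, so these signs say nothing of a shared origin, and how same-named lines are related is not known. The cause of these moves was not tested.

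The 9 segments, whose alternatives were chosen after seeing the data, became 17 at the looser penalty, 4 at positions under 10% methylated, 5 from odd-numbered and 5 from even-numbered clusters. The gains on chromosomes 4 and 8 and the second on chromosome 11 were found in every setting. The other segments were not. From odd-numbered or from even-numbered clusters, only the larger chromosome 2 loss was found besides these gains. At positions under 10% methylated, only the chromosome 9 gain was found besides them. The chromosome 1 loss was also not found with a read minimum of 30. Of 35 values of segments, 29 moved by less than the library's spread over bins, 5 moved by more and 1 reversed. The reversed one was the retained span on chromosome 2, at -0.06 by summed reads and at 0.20 from odd-numbered clusters.

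Of 166 values of named bins 97 moved by less than the library's spread over bins, 60 moved by more and 9 reversed. The chromosome 8 bin at 50 Mb went to -0.31 in DKO replicate 1, -0.047 in DKO replicate 2, 0.11 in the first WT line and 0.17 in round spermatids by position medians, and to -0.40 in DKO replicate 1 and 0.043 in the first WT line without the 1% deepest positions. The chromosome 14 bin at 80 Mb went to -0.12 in DKO replicate 1 and 0.11 in round spermatids without them. The chromosome 2 bin of DKO replicate 3 went to 0.11 with 10 reads required in all 6 libraries, a rule that drops lost positions. Depth is a share, so a change of the whole genome's dose cannot be seen, and bins with few positions were the least precise.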
